A study of Drosophila melanogaster with 16 samples.

Results

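sev, tyn, fs(1)Yb and CG3568 are 4 protein-coding genes of the X chromosome of Drosophila melanogaster whose RNA was far higher in male than in female midguts, in control flies and in flies labelled Myc RNAi. They were chosen for that sex difference, from the same libraries described here, and are 4 of the 16680 genes in the count table. All 4 were among the 9314 genes that passed the filter on low counts. Because the male-over-female difference chose them, it is given below as a description without a test. Their response to the genotype was not part of the choice and was tested.

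RNA was sequenced from dissected midguts of virgin males and virgin females; the midgut is the stretch of fly intestine that digests food and takes up nutrients. Flies labelled Myc RNAi carried the driver mex1-GAL4, labelled TS, together with the Myc RNAi line GD1419, and their controls carried the same driver in a w1118 background without the RNAi line. mex1-GAL4 is a driver of enterocytes, the absorptive cells of the gut, so the RNAi construct was not aimed at the other cell types of a dissected midgut. Each of the 4 groups (male Myc RNAi, male control, female Myc RNAi and female control) held 4 libraries, with 30 guts pooled in each, and the series text speaks of 3-4 independent samples. The age of the flies is not given in the labels used here, and p-values measure the spread between these pools.

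Male flies have 1 X chromosome. Their MSL complex, with the noncoding RNAs roX1 and roX2 and the protein Msl-2, binds it and raises the transcription of its genes, so that most X-linked genes give similar RNA levels in both sexes. sev encodes Sevenless, the receptor tyrosine kinase that specifies a photoreceptor in the developing eye after binding its ligand Boss, and it signals through Drk, Sos and Ras85D. tyn (trynity) encodes a zona pellucida domain protein of the apical extracellular matrix, known from the embryonic epidermis and tracheae. fs(1)Yb encodes a Tudor-domain protein of Yb bodies, where piRNAs are processed in the somatic cells of the gonad. No role is given here for CG3568.

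The members lie far apart on the chromosome. In dm6 coordinates, tyn (FBgn0284435) spans X:140318-200663 on the plus strand, with 6 annotated transcripts and 5691 exonic bases. fs(1)Yb (FBgn0000928) spans X:2720468-2724158 and CG3568 (FBgn0029710) X:4542630-4544497, both on the plus strand, with 3502 and 1693 exonic bases. sev (FBgn0003366) spans X:11071441-11086299 on the minus strand, with 8171 exonic bases in 12 exonic blocks. CG3568 lies 685.4 kb from roX1, and sev lies 507.6 kb from roX2.

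Total counts per library ran from 16630050 to 53586401. The levels of roX1 separated the sexes in every library, with means of 719 CPM in male Myc RNAi, 720 CPM in male control, 1.13 CPM in female Myc RNAi and 0.865 CPM in female control libraries. CPM is the count of a gene divided by its library's total in units of 1e+06, after scaling with TMM factors, which were 1.12 to 1.23 in the libraries labelled Myc RNAi and 0.691 to 1.01 in controls. Myc itself (listed as dm) averaged 39.9 ± 13.6 CPM in male Myc RNAi and 25.5 ± 6.10 CPM in male control libraries (SD, n = 4 each; log2 difference 0.65, SE 0.26, edgeR adjusted p = 0.0619). In females it averaged 59.0 ± 17.3 CPM in Myc RNAi and 89.1 ± 27.4 CPM in control libraries (log2 difference -0.59, SE 0.26, edgeR adjusted p = 0.0892). The RNAi group is therefore called by its label: a fall of Myc RNA passed the test in neither sex, and in males the means ran the other way. Another gene, w, separated the 2 labels without overlap of libraries in each sex. It averaged 460 ± 78.3 CPM in male Myc RNAi and 23.6 ± 2.87 CPM in male control libraries. In females it averaged 340 ± 30.3 CPM in Myc RNAi and 14.4 ± 3.38 CPM in control libraries. Why w differed was not tested. Enterocyte marker genes were abundant in all libraries. In the male Myc RNAi library numbered 16, a list of 18 testis germline genes held 36042 reads, against 153 to 623 reads in each of the other 15 libraries, and values without this library are given where it bears on a member.

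sev had 44.8, 59.5, 44.7 and 20.5 CPM in the 4 male Myc RNAi libraries and 0.904, 1.62, 1.72 and 1.14 CPM in the 4 female Myc RNAi libraries. In controls it had 21.6, 10.2, 9.85 and 12.5 CPM in males and 1.86, 0.547, 0.706 and 1.20 CPM in females. The lowest male library of either genotype lay above the highest female library. Library 16 was the lowest of the male Myc RNAi group, and 1 male control library, numbered 5, lay above it. The ratio of male to female means was 31.5 with the label Myc RNAi and 12.6 in controls. In pooled guts, RNA from fewer cells of a type and less RNA per cell cannot be told apart, and this holds for each value below.

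tyn had 24.0, 22.2, 22.6 and 18.6 CPM in male Myc RNAi libraries and 1.64, 1.87, 1.89 and 2.57 CPM in female Myc RNAi libraries. In controls it had 10.3, 11.3, 11.8 and 10.9 CPM in males and 0.904, 0.957, 0.706 and 1.66 CPM in females. The libraries of a group lay close together, and males lay above females without overlap in each genotype. The ratio of means was 10.97 with the label Myc RNAi and 10.5 in controls.

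fs(1)Yb came closest to an on and off pattern. It had 4.88, 6.57, 5.43 and 4.07 CPM in male Myc RNAi libraries, whereas 3 of the female Myc RNAi libraries had 0 reads and the library numbered 11 had 5 reads (0.0802 CPM). It had 5.61, 6.19, 5.98 and 6.88 CPM in male controls, and 1, 0, 4 and 2 reads in the female controls, which is at most 0.166 CPM. Over the groups this was 642 reads in male and 5 in female Myc RNAi libraries, with a ratio of mean CPM of 261. In controls 797 reads in males stood against 7 in females, with a ratio of mean CPM of 76.2. The reads in females are near the floor of 3 reads, so the size of the sex difference of fs(1)Yb is known less well than for the other members.

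CG3568 was the most abundant member and the one with the smallest sex difference. It had 51.1, 43.9, 51.9 and 51.6 CPM in male Myc RNAi libraries and 7.26, 5.36, 6.45 and 7.22 CPM in female Myc RNAi libraries. In controls it had 36.8, 30.2, 33.6 and 29.9 CPM in males and 4.47, 7.61, 7.73 and 7.23 CPM in females. Males lay above females without overlap, with a ratio of means of 7.55 under the label Myc RNAi and 4.83 in controls. Unlike fs(1)Yb, CG3568 was read in every female library.

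**Figure D1:**
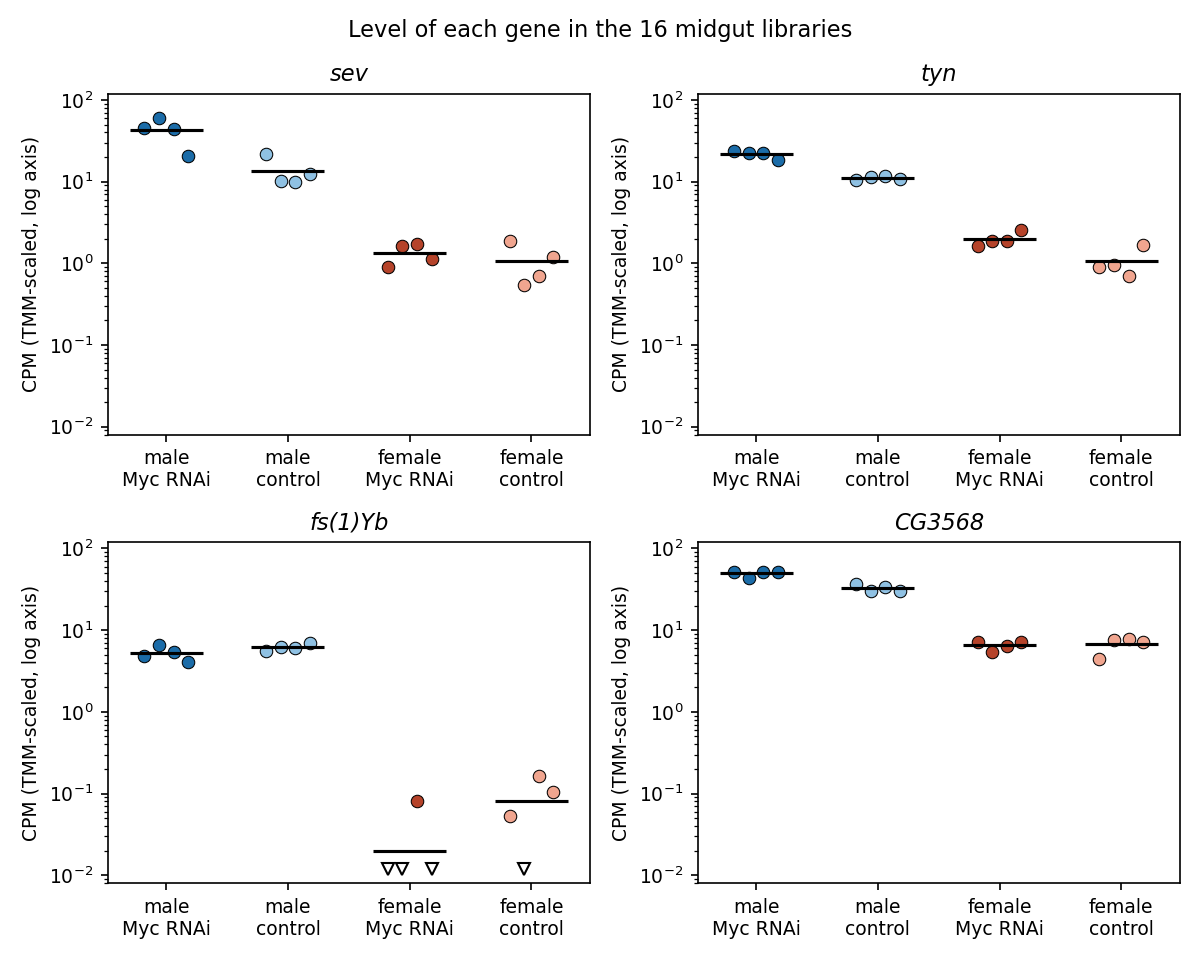
Normalised read count (CPM, log axis) of sev, tyn, fs(1)Yb and CG3568 in each of the 16 libraries, by group, with horizontal lines at the group means and open triangles for libraries with 0 reads. All male libraries lie above all female libraries of every panel, and the male Myc RNAi libraries of tyn and CG3568 lie above the male controls.

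Per kilobase of exon, CG3568 had the highest level of the members in every group. In male Myc RNAi libraries CG3568 led with 29.3 ± 2.25 CPM per kb, followed by sev with 5.19 ± 1.98, tyn with 3.84 ± 0.406 and fs(1)Yb with 1.495 ± 0.299 (SD, n = 4). sev and tyn did not differ there beyond their spread. In male controls CG3568 had 19.3 ± 1.94 CPM per kb, and tyn (1.95 ± 0.111), fs(1)Yb (1.76 ± 0.153) and sev (1.66 ± 0.674) lay within 1 SD of sev of each other. In female Myc RNAi libraries CG3568 had 3.88 ± 0.527 CPM per kb, tyn 0.350 ± 0.0705, sev 0.165 ± 0.0475 and fs(1)Yb 0.00573. In female controls CG3568 had 3.99 ± 0.911 CPM per kb, tyn 0.186 ± 0.0735, sev 0.132 ± 0.0723 and fs(1)Yb 0.0231, and tyn and sev did not differ beyond their spread.

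The fitted log2 male-over-female differences placed the members at the edge of the X chromosome. They were 4.96 for sev, 3.45 for tyn, 7.19 for fs(1)Yb and 2.91 for CG3568 among libraries labelled Myc RNAi, and 3.67, 3.40, 6.15 and 2.27 in the same gene order among controls. Over the 1474 tested X-linked protein-coding genes the median difference was 0.02 with the label Myc RNAi and -0.02 in controls. A range of -0.87 to 1.15 held 5% to 95% of these genes with the label Myc RNAi, and a range of -0.90 to 1.02 did in controls. A difference of at least 2 was reached by 32 X-linked genes (2.17%) with the label Myc RNAi and by 17 (1.15%) in controls, and by 2.2% and 1.08% of autosomal protein-coding genes. Male libraries lay above female libraries without overlap for 6.39% of all tested genes with the label Myc RNAi and for 7.06% in controls. The members were chosen on this contrast, so nothing is read from these shares.

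Ranked by the smaller of the 2 sex differences, fs(1)Yb, sev and tyn held ranks 1, 2 and 3 among the 1474 X-linked genes, and CG3568 held rank 8. hog (smaller difference 3.12), CG17707 (2.45), RSG7 (2.38) and CG3703 (2.274) stood between tyn and CG3568 (2.2665). CG32812 (2.22) and r-cup (2.08) came directly after it. hog, CG17707, RSG7, CG32812 and r-cup averaged under 3 CPM in every group. CG3703 was the exception, with 12.01 CPM in male Myc RNAi, 2.49 CPM in female Myc RNAi, 11.1 CPM in male control and 2.19 CPM in female control libraries. Among all 9314 tested genes the only ones ahead of fs(1)Yb were roX1 and roX2, while sev held rank 8, tyn rank 11 and CG3568 rank 27.

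**Figure D2:**
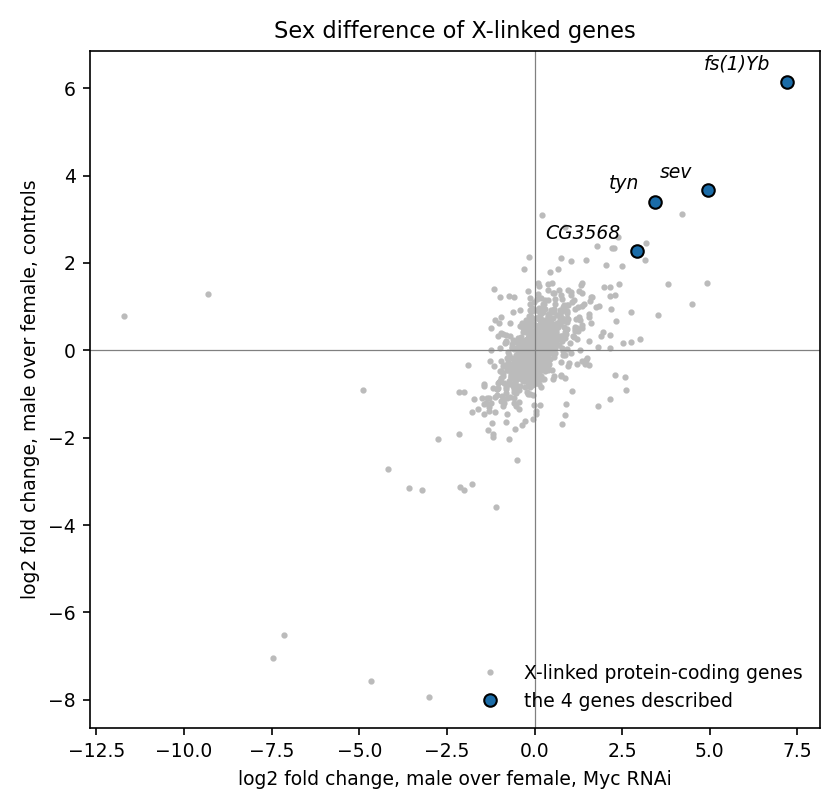
Log2 male-over-female difference among libraries labelled Myc RNAi against the same difference among controls, with 1 point for each of the 1474 tested X-linked protein-coding genes and the members named. Most genes lie near 0 on both axes, and fs(1)Yb (7.19 and 6.15), sev (4.96 and 3.67), tyn (3.45 and 3.40) and CG3568 (2.91 and 2.27) lie far from them.

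The sex differences of neighbouring genes were tested, although reads of a neighbour that shares exonic bases with a member are not independent of the choice. The 3 annotated genes on each side of each member and any gene overlapping it came to 25 genes, of which 18 were tested. Of these, 3 were higher in males with the label Myc RNAi and 4 in controls, against 2.72% and 5.27% of all tested genes. Lower in males were 3 with the label Myc RNAi and 2 in controls, against 2.85% and 5.02%. The log2 differences of the 18 ran from -1.62 to 3.17 and from -1.46 to 2.45 in the same order of genotypes, so sex differences of both signs lay next to the members. The neighbours that share no exonic bases with a member numbered 15 among those tested, of which 2 were higher in males with the label Myc RNAi and 3 in controls, with highest log2 differences of 2.42 and 1.52.

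Beside tyn, CG17707 lies on the opposite strand within its span and shares 635 exonic bases with it. It averaged 1.46 ± 0.437 CPM in male and 0.155 ± 0.120 CPM in female Myc RNAi libraries (log2 3.17, SE 0.66, edgeR adjusted p = 0.00961). In controls it averaged 0.832 ± 0.259 CPM in males and 0.157 ± 0.191 CPM in females (log2 2.45, SE 0.70, edgeR adjusted p = 0.0337). The strand setting of the counting is not given in the sources used here, so reads of tyn and of CG17707 cannot be told apart. CG17707 had 23 reads in female Myc RNAi and 12 in female control libraries, and it passed the filter through its male libraries. Its p-values are therefore no independent test of a sex difference. A second gene on the opposite strand, the noncoding CR45473 with 362 shared exonic bases, ran the other way and was lower in males in both genotypes (log2 -1.07 and -1.02 for Myc RNAi and control, edgeR adjusted p = 0.0217 and 0.0191). CG17636, 13603 bases away, was also lower in males (log2 -1.44 and -1.46, edgeR adjusted p = 0.0215 and 0.0109). RhoGAP1A, which shares 23 exonic bases with tyn on the same strand, was not called. Its log2 differences were -0.02 and 0.20 in the same order of genotypes (edgeR adjusted p = 0.985 and 0.585).

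Next to fs(1)Yb, fs(1)Ya starts 127 bases downstream on the same strand and encodes a nuclear envelope protein needed in the early embryo. It averaged 2.79 ± 0.0999 CPM in male and 0.507 ± 0.224 CPM in female Myc RNAi libraries (log2 2.42, SE 0.43, edgeR adjusted p = 0.00388). In controls it averaged 4.24 ± 1.47 CPM in males and 1.46 ± 1.09 CPM in females (log2 1.52, SE 0.42, edgeR adjusted p = 0.0279). In females it was lower with the label Myc RNAi than in controls (log2 -1.49, edgeR adjusted p = 0.0122), and without female control library 3 this value was -0.83 (adjusted p = 0.0875). vilya (listed as CG2709), the next gene downstream and a factor of meiotic recombination, was higher in males with the label Myc RNAi (log2 1.82, edgeR adjusted p = 0.00702) and had a difference of 0.08 in controls (adjusted p = 0.919). On the other side, CG2701 begins 140 bases away and had differences of 0.02 and -0.02.

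Around CG3568 the sex differences were smaller. CHOp24, whose end lies 123 bases upstream and which encodes a p24 protein of the early secretory pathway, had log2 differences of -0.14 and -0.19. Usf, a helix-loop-helix transcription factor gene that lies 119 bases downstream, had -0.10 with the label Myc RNAi and 0.76 in controls (edgeR adjusted p = 0.0176). CG15912 had 0.12 and 0.96 (edgeR adjusted p = 0.0403 in controls). The noncoding CR32773, whose span covers CG3568 without shared exonic bases, was lower in males with the label Myc RNAi (log2 -1.62, edgeR adjusted p = 0.0128). No protein-coding neighbour of sev passed the filter. The noncoding CR45604, 2931 bases from sev, was tested. Its log2 differences were 0.20 with the label Myc RNAi and -1.19 in controls (edgeR adjusted p = 0.886 and 0.119). CR44358, which lies antisense within sev and shares 75 exonic bases with it, had 46 reads in male Myc RNAi library 16 and 0 in every other library.

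Several of these neighbour calls were lost when a single library was left out. In controls, the call of CG17707 was lost without female library 2, 3 or 4 or male library 5, 7 or 8, that of fs(1)Ya without female library 1, 2 or 4 or male library 5 or 8, and that of Usf without female library 2 or 4. That of CG15912 was lost without female library 1, 3 or 4, any of the male control libraries 5 to 8, or female Myc RNAi library 12, and that of CR45473 without female library 1 or male library 6 or 7. With the label Myc RNAi, CG17636 lost its call without female library 9, 10 or 11 or male library 13 or 15, CR45473 without female library 9 or 10, and CR32773 without female library 11. The Myc RNAi calls of CG17707, fs(1)Ya and vilya passed the test whichever library was left out, but without the filter on low counts CG17707 (edgeR adjusted p = 0.0755) and vilya (0.053) did not. The control calls of CG17707 and fs(1)Ya were also lost with total-count scaling, without the filter and with the 8 control libraries alone (edgeR adjusted p from 0.0511 to 0.154).

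**Figure D3:**
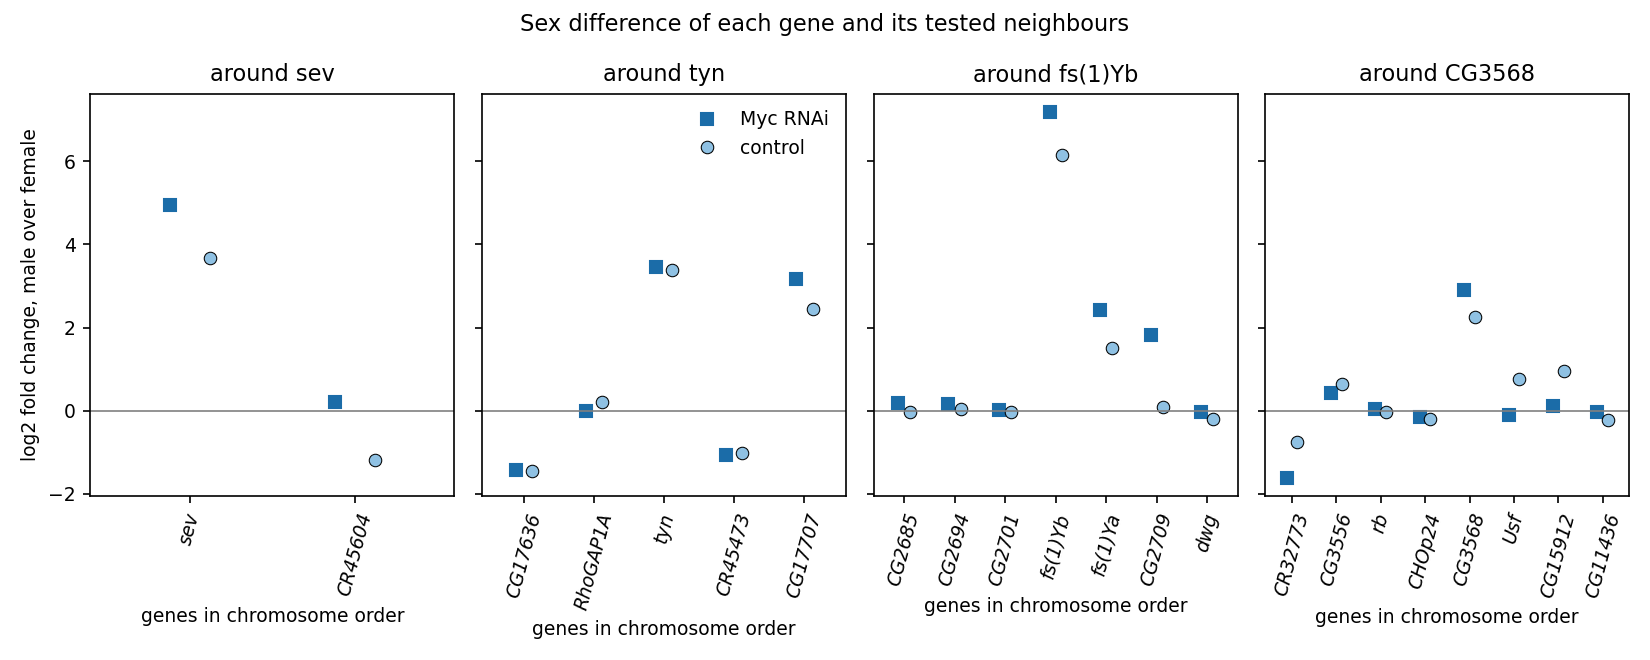
Log2 male-over-female differences of the 18 tested neighbours and of the members, by the order of genes along the chromosome, for libraries labelled Myc RNAi and for controls. CG17707 beside tyn (3.17 and 2.45) and fs(1)Ya beside fs(1)Yb (2.42 and 1.52) are high, while CR45473 (-1.07 and -1.02) and CHOp24 (-0.14 and -0.19) are not.

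In males, 3 of the 4 members were higher with the label Myc RNAi than in controls. Among all tested genes 39.4% changed in this comparison, 21.7% being higher and 17.7% lower. Over the X-linked protein-coding genes 19.9% were higher, so such a rise was common, on that chromosome too. sev averaged 42.4 ± 16.2 CPM in male Myc RNAi and 13.5 ± 5.50 CPM in male control libraries (SD, n = 4 each), the largest change of the members (log2 1.65, SE 0.34, 95% interval 0.93 to 2.37, edgeR adjusted p = 0.000997). Its groups overlapped in the values of libraries 16 and 5, and the difference was 1.88 without library 16 and 1.91 without library 5. tyn averaged 21.9 ± 2.31 CPM against 11.1 ± 0.629 CPM in male controls, a ratio of 1.97 (log2 0.98, SE 0.19, interval 0.58 to 1.37, edgeR adjusted p = 0.000493). CG3568 averaged 49.6 ± 3.81 CPM against 32.6 ± 3.28 CPM in male controls, a ratio of 1.52 (log2 0.61, SE 0.15, interval 0.29 to 0.92, edgeR adjusted p = 0.00347). For tyn and CG3568 all Myc RNAi libraries lay above all controls, as they did for 18.8% of all tested genes, and without library 16 the differences were 1.05 and 0.59.

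fs(1)Yb was the member for which no change in males was found. It averaged 5.24 ± 1.05 CPM in male Myc RNAi and 6.16 ± 0.535 CPM in male control libraries (log2 -0.24, SE 0.40, edgeR adjusted p = 0.682). The interval ran from -1.09 to 0.62, so a change as large as that of tyn upward lies outside it, and a fall of the same size lies inside. With total counts in place of TMM factors the estimate was 0.23 and again was not called.

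In females, tyn was the member that changed. It averaged 1.99 ± 0.401 CPM in female Myc RNAi and 1.06 ± 0.418 CPM in female control libraries, a ratio of 1.88 (log2 0.92, SE 0.22, interval 0.46 to 1.39, edgeR adjusted p = 0.00308). The groups overlapped by 1 control library, numbered 4, at 1.66 CPM. The background of this comparison was 36.1% of tested genes changed, 18.5% higher and 17.6% lower, with 15.3% higher on the X chromosome. sev averaged 1.35 ± 0.388 CPM in Myc RNAi and 1.08 ± 0.591 CPM in control libraries (log2 0.36, SE 0.43, interval -0.55 to 1.26, edgeR adjusted p = 0.571). CG3568 averaged 6.57 ± 0.893 CPM in Myc RNAi and 6.76 ± 1.54 CPM in control libraries (log2 -0.04, SE 0.16, interval -0.37 to 0.29, edgeR adjusted p = 0.877). For fs(1)Yb 5 reads in Myc RNAi against 7 in control libraries allowed no difference to be detected at this depth. The gene passed the filter through its male libraries, so its fitted female difference (log2 -1.28, SE 0.83) is no usable test in females.

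Whether the genotype acted differently in the sexes was tested directly, as the male effect minus the female effect. This interaction passed the test for 1.07% of all tested genes and for no member. For sev it was 1.29 (SE 0.55, unadjusted p = 0.0313, edgeR adjusted p = 0.361) and for CG3568 0.65 (SE 0.21, unadjusted p = 0.00809, edgeR adjusted p = 0.198). Without female control library 1, the lowest of its group for CG3568, that value was 0.80 (adjusted p = 0.0460). For tyn it was 0.05 (SE 0.30, edgeR adjusted p = 0.974), the effects of 0.98 in males and 0.92 in females being close to each other. For fs(1)Yb it was 1.04 (SE 0.90), which rests on the same few female reads and is no usable test. Whether the effects on sev and CG3568 differed between the sexes was thus not resolved by 4 libraries per group.

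**Figure D4:**
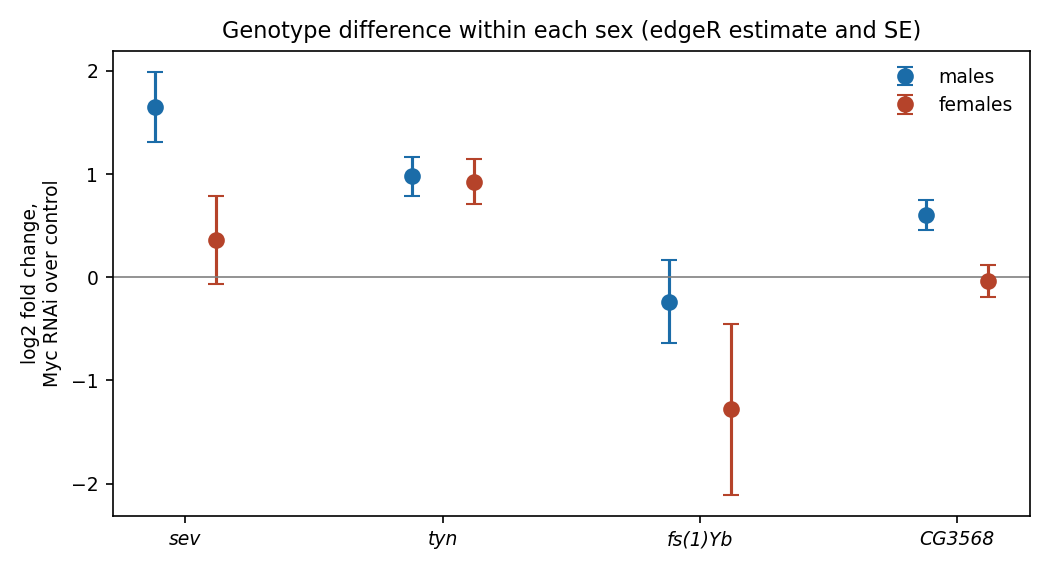
Log2 difference between libraries labelled Myc RNAi and controls for each member in males and in females, with bars for the SE. The wider 95% intervals are not drawn. They exclude 0 for sev (1.65), tyn (0.98) and CG3568 (0.61) in males and for tyn (0.92) in females. The interactions of sev (1.29) and CG3568 (0.65) are not drawn either. Their unadjusted intervals exclude 0, but they did not pass the adjusted test.

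Markers of gut cell types moved with the genotype as well. A list of 15 stem cell and enteroblast genes summed to 387 to 560 CPM in male Myc RNAi and 234 to 283 CPM in male control libraries, and to 344 to 456 CPM in female Myc RNAi and 153 to 279 CPM in female control libraries. Library 16 was the lowest male Myc RNAi library for this list and for sev. Enterocyte markers (11 genes) summed to 17447 to 20160 CPM in male Myc RNAi and 31481 to 63579 CPM in male control libraries. In females they summed to 15078 to 18040 CPM in Myc RNAi and 28984 to 74539 CPM in control libraries. This sum was carried by the trypsin genes alphaTry and betaTry. alphaTry averaged 7033 CPM in male Myc RNAi and 25836 CPM in male control libraries, and betaTry 1804 CPM and 13714 CPM. The enterocyte list did not move in 1 direction with the label Myc RNAi: 5 of its 11 genes were higher and 4 lower in males, and 5 were higher and 3 lower in females. Over all tested genes 21.7% were higher and 17.7% lower in males, and 18.5% and 17.6% in females. In males, the septate junction genes Ssk (log2 1.38), mesh (1.503) and Tsp2A (1.53) were higher in Myc RNAi than in control libraries. So was the driver's own gene mex1 (0.62; edgeR adjusted p = 7.82e-07, 1.4e-05, 1.28e-06 and 0.0315 in that gene order).

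Summed markers of copper and enteroendocrine cells also differed between the sexes, the latter with overlap among the Myc RNAi libraries. The 8 copper cell genes summed to 5413 to 6500 CPM in male Myc RNAi and 9963 to 13728 CPM in male control libraries, and to 4212 to 4768 CPM in female Myc RNAi and 4042 to 6568 CPM in female control libraries. Of these 8 genes, 6 were lower and 0 higher in male Myc RNAi than in male control libraries. Over all tested genes 17.7% were lower and 21.7% higher in that comparison. Between the sexes, 0 of the 8 were higher and 2 lower in males with the label Myc RNAi, against 2.72% and 2.85% of all tested genes. In controls 3 were higher and 1 lower in males, against 5.27% and 5.02%. The summed CPM thus does not show how most genes of this list moved. The 14 enteroendocrine genes summed to 507 to 805 CPM in male Myc RNAi and 658 to 911 CPM in male control libraries, and to 432 to 510 CPM in female Myc RNAi and 520 to 606 CPM in female control libraries. Of these 14 genes, 3 were higher and 0 lower in males in each genotype. Over all tested genes 2.72% were higher in males with the label Myc RNAi and 5.27% in controls. The part of all these lists in the differences of sev, tyn, fs(1)Yb and CG3568 was not tested.

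Marker lists of the tissues in which the members are best known were summed in the same way. The 20 genes of the neuron and eye list summed to 48.2 to 49.5 CPM in male Myc RNAi, 47.9 to 59.8 CPM in male control, 39.9 to 47.1 CPM in female Myc RNAi and 36.7 to 73.7 CPM in female control libraries. Every male Myc RNAi library lay above every female Myc RNAi library, and every male control library lay above the female controls except library 3, the highest of all. Female control library 3 had 0.706 CPM of sev. Of the 11 tested genes of this list, 1 was higher and 0 lower in males with the label Myc RNAi, and 0 were higher and 0 lower in controls. Over all tested genes 2.72% and 5.27% were higher in males in that order of genotypes. The sum thus does not show how most genes of the list moved. The part of this list in the sex difference of sev was not tested. The ovary list of 19 genes summed to 7.46 to 10.4, 4.71 to 7.24, 4.49 to 7.38 and 2.66 to 5.51 CPM in the same order of groups. The ovary sum was highest in male Myc RNAi, where every library lay above every female library. Only 3 genes of this list were tested, and 0 of them were higher or lower in males in either genotype. Of the germline genes in this list, osk, nos and bam each averaged at most 0.119 CPM in every group. grk averaged 3.85, 2.77, 2.38 and 2.04 CPM. vas averaged 0.507 ± 0.518, 0.195 ± 0.0558, 0.151 ± 0.0830 and 0.0770 ± 0.0684 CPM (SD). In male Myc RNAi libraries the SD of vas thus exceeded its mean. That group holds the library with testis germline RNA, and no value of vas without it is given. Nothing about ovary RNA is therefore read from vas. The follicle cell gene slbo averaged 4.00, 1.36, 2.76 and 0.660 CPM. The part of this list in the differences of fs(1)Yb was not tested. boss, the ligand gene of Sevenless, averaged 0.161, 0.185, 0.0531 and 0.291 CPM in that order of groups and was not tested.

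Markers of the trachea and of the male reproductive tract gave no order of groups like that of the members. The 7 tracheal genes summed to 21.9 to 25.5 CPM in male Myc RNAi, 24.6 to 35.8 CPM in male control, 34.2 to 40.5 CPM in female Myc RNAi and 30.6 to 37.3 CPM in female control libraries. The 11 genes of the male somatic reproductive list summed to 0.491 to 2.25 CPM, 0.290 to 16.3 CPM, 0.971 to 3.25 CPM and 0.780 to 5.21 CPM in the same order of groups. The testis germline list, library 16 aside, stayed between 7.48 and 18.8 CPM in all libraries of both sexes.

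The genes whose log2 CPM followed each member most closely over the 16 libraries were largely the other sex-biased genes of the X chromosome. For sev they were tyn (Pearson r = 0.962), roX1 (0.949) and roX2 (0.937), for tyn roX2 (0.983), sev (0.962) and CG3568 (0.962). For fs(1)Yb they were the X-linked noncoding RNA CR43961 (0.982), roX1 (0.976) and CG3568 (0.955), and for CG3568 they were roX2 (0.966), tyn (0.962) and roX1 (0.958). The libraries are shared by all genes and fall into 2 sexes, so these values describe mainly the sex difference.

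After subtracting the mean of each group, the highest r of any pair of members was 0.34 and the lowest was -0.54, for sev and CG3568. These values were not tested. Male Myc RNAi library 14 was the highest of its group for sev (59.5 CPM) and the lowest for CG3568 (43.9 CPM). Female control library 1 was also the highest of its group for sev (1.86 CPM) and the lowest for CG3568 (4.47 CPM). sev and CG3568 had r = -0.54, sev and fs(1)Yb 0.34, sev and tyn 0.23, tyn and CG3568 0.08, tyn and fs(1)Yb -0.01, and fs(1)Yb and CG3568 -0.02 over 16 libraries. On that measure the genes most like sev were abs (0.882), nahoda (0.853) and CG43861 (0.851), and those most like tyn were CG5273 (0.867), pll (0.839) and sna (0.836). CG12576 (0.874), fidipidine (0.843) and CG1827 (0.833) were most like fs(1)Yb, and Gbp2 (0.852), CG5196 (0.843) and CG7702 (0.842) most like CG3568. No member was among the 3 genes most like another on this measure. Each named gene was picked as among the highest of all 9314 tested genes, so nothing is read from the size of its r. For fs(1)Yb the female libraries add little, with 5 reads in the Myc RNAi and 7 in the control group.

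Of the genes that act with or beside Sevenless and the EGF receptor, sev aside, 22 were tested. In males 7 were higher and 1 lower with the label Myc RNAi than in controls, and in females 10 were higher and 0 lower, a count of 10 that fell to 5 without female control library 2. Over all tested genes 21.7% were higher and 17.7% lower in males, and 18.5% and 17.6% in females. Their median log2 difference was 0.29 in males, against 0.05 over all tested genes, and 0.15 in females, against 0.00. Ras85D, the small GTPase downstream of the receptor, averaged 144 ± 16.5 CPM in male Myc RNAi and 62.2 ± 11.2 CPM in male control libraries (log2 1.21, edgeR adjusted p = 1.06e-05), and in females the difference was 1.17. The adaptor gene Shc rose by 1.35 in males and 1.29 in females on the log2 scale. The EGF receptor ligand gene spi rose by 0.41 and 0.44 on that scale. The gene lower in males was sty (Sprouty), an inhibitor of the pathway (log2 -1.15, edgeR adjusted p = 0.0144; females -0.04, adjusted p = 0.946). The call of sty was lost without male control library 6 (-0.98, edgeR adjusted p = 0.0516), with limma voom (adjusted p = 0.076), with total-count scaling (0.137) and with the 8 male libraries alone (0.0518).

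Of the zona pellucida domain genes other than tyn, 9 were tested. In males 0 were higher, against 21.7% of all tested genes, and 2 were lower, against 17.7%. These were CG10005 (log2 -1.04, edgeR adjusted p = 0.0009) and CG16798 (-2.19, edgeR adjusted p = 0.0036). In females edgeR called 0, DESeq2 0 and limma voom 0, and 1 had an unadjusted p under 0.05. Their median log2 difference was -0.06 in males, against 0.05 over all tested genes, and 0.23 in females, against 0.00. Whether tyn differs from its family was not tested.

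Among 26 tested piRNA pathway genes other than fs(1)Yb, 10 were higher and 3 lower in males, and 7 were higher and 4 lower in females. Over all tested genes 21.7% were higher and 17.7% lower in males, and 18.5% and 17.6% in females. The medians of the list were 0.32 in males and 0.28 in females, against 0.05 and 0.00 over all tested genes. In males 9 genes were called without library 16, the library with testis germline RNA, and 9 without male control library 8. Germline genes of the list varied widely in male Myc RNAi libraries, as with mael (1.83 ± 1.83 CPM, against 0.604 ± 0.180 CPM in male controls). piwi, the nuclear Argonaute protein of the pathway, averaged 3.99 ± 1.42 CPM in male Myc RNAi and 0.763 ± 0.218 CPM in male control libraries (log2 2.39, edgeR adjusted p = 0.000559; females 1.89), and tej, a Tudor-domain gene, rose by 1.31 and 1.24 (log2). vret, a cofactor of piRNA production in somatic cells, rose in females (log2 1.63, edgeR adjusted p = 0.00122), where nxf2 also rose (0.67, adjusted p = 0.00469). Lower in both sexes were mino, a glycerol-phosphate acyltransferase (log2 -0.92 and -0.49), qin (-1.33 and -0.88) and the Argonaute gene AGO3 (-0.86 and -1.48). The call of AGO3 in males was lost without male control library 7 or 8 or male Myc RNAi library 13, 14 or 15 (edgeR adjusted p up to 0.144). It was also lost with total-count scaling (0.28), without the filter (0.0608) and with the 8 male libraries alone (0.056). The interval of fs(1)Yb in males (-1.09 to 0.62) holds the list's median rise as well as the falls of mino and AGO3.

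Of the 12 tested dosage compensation genes, 2 were higher and 1 lower in males, and 2 were higher and 0 lower in females. Over all tested genes 39.4% changed in males and 36.1% in females. The calls in females include roX2, which passed the filter through its male libraries. The count in females ran from 2 to 4 with single libraries left out, so no difference from these shares is read. roX2 averaged 38.6 ± 6.10 CPM in male Myc RNAi and 16.5 ± 4.29 CPM in male control libraries (log2 1.22, SE 0.23, edgeR adjusted p = 0.000882). It had 38 reads in the female Myc RNAi libraries (0.271 ± 0.153 CPM) and 0 reads in the female controls. No fold is therefore given, and its call in females is no usable test. roX1 had a difference of 0.00 in males (edgeR adjusted p = 0.995). Top2, a topoisomerase that takes part in dosage compensation, rose by 0.80 in males and 0.93 in females on the log2 scale. mof, the acetyltransferase of the MSL complex, was lower in males (log2 -0.46, edgeR adjusted p = 0.0441). That call was lost without female control library 1 or 3, male control library 5, 6 or 8, female Myc RNAi library 9 or 10, or male Myc RNAi library 13, 14 or 16. msl-2 averaged 22.6 ± 5.04 CPM in male Myc RNAi, 28.2 ± 5.17 CPM in male control, 9.67 ± 1.24 CPM in female Myc RNAi and 8.63 ± 1.37 CPM in female control libraries, and the genotype difference passed the test in neither sex (edgeR adjusted p = 0.158 in males and 0.522 in females).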

How the data were processed

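The authors deposited unnormalised read counts for each gene in all 16 libraries. An RNeasy extraction, poly(A) selection and the stranded NEBNext Ultra II Directional chemistry are described per the labels' protocols. TopHat2 2.0.11, featureCounts and the dm6 build are named per the submitters' processing notes. The annotation used for counting, its strand setting and its treatment of multiply mapped reads are unknown (not given in the sources used here), so values of overlapping genes are uncertain. Reads of a gene family could also have been split between its copies.

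Of the gene names, 12504 matched a current symbol of the reference gene table, 3992 a synonym and 184 neither. Coordinates (1-based) were read from Ensembl's BDGP6 annotation, whose sequence is that of dm6. Libraries were grouped by their titles. No pair of replicates agreed within sampling noise (25.8 to 326 for chi-square over its degrees of freedom), so each counted as 1 replicate. Genes were filtered with filterByExpr by group and scaled with TMM. The quasi-likelihood model of edgeR 4.0.16 in R 4.3.3 used a mean for each group over all 16 libraries, and p-values were adjusted by Benjamini-Hochberg over the 9314 tested genes. A gene was called at an adjusted p under 0.05. Correlations used log2 CPM with a prior count of 2. Groups are given as mean ± SD over 4 libraries.

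The script was tested on simulated data. The alternatives were total counts as library sizes, TMM on autosomal genes, DESeq2 1.42.0, limma voom (limma 3.58.1), no filter, a filter of 1 CPM in 4 libraries, only the 8 libraries compared, and each library left out. The members and the gene lists were chosen with earlier results of these data known. Genes outside the members were named by rule: the 3 annotated neighbours on each side, the 3 genes most alike, the 10 first X-linked genes by sex difference, and up to 4 called genes per list with the lowest p. w, sty, boss, msl-2, osk, nos, bam, vas, grk, slbo, mael and the enterocyte genes, and the values of tej, mino, qin and AGO3 in the other sex, were chosen after their values were seen. Transposable elements were left out of the neighbours. No sequence is printed. A gene of the Sevenless list that the naming rule took is not reported here.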

Additional observations from a re-analysis of the deposited data

Results flagged for a closer look

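The spread of the 4 members within each group of 4 libraries was examined in 16 groups, and in 3 of them 1 library stood apart by Dixon's ratio, the gap to the nearest library divided by the range of the group, against the 95% critical value for 4 libraries. Chance gives about 1 such group in 20. For CG3568 in male Myc RNAi libraries the ratio was 0.896, with library 14 at 43.9 CPM below the other 3 at 51.1 to 51.9 CPM. For CG3568 in female control libraries it was 0.848, with library 1 at 4.47 CPM below the other 3 at 7.23 to 7.73 CPM. For fs(1)Yb in female Myc RNAi libraries it was 1, since library 11, the deepest of all with 53586401 counts, had 5 reads and the other 3 had 0. With 3 libraries tied at 0 the ratio is 1 whatever the number of reads. This value therefore carries no information beyond the reads themselves, and this group is not to be set against the chance rate.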

How the results depend on the processing

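The calls of sev, tyn and CG3568 in males and of tyn in females passed the test in all 7 other settings and with each of the 16 libraries left out. Total-count scaling moved the median of all genes to 0.52 in males and 0.43 in females (0.05 and 0.00 with TMM) and the share of called genes that were higher to 85.2% and 83.8% (55.2% and 51.4% with TMM). It turned fs(1)Yb to 0.23 in males, CG3568 to 0.40 in females, CHOp24 to 0.14 in males and 0.049 in females and mof to 0.030 in males, none of them called. Relative to the median, fs(1)Yb stayed at -0.29 and CG3568 at -0.03. It also gave 13 called genes in males for the Sevenless list (8 with TMM), 4 in males and 2 in females for the zona pellucida list (2 and 0), and 4 in females for the dosage compensation list (2). The 8 female libraries alone gave 1 for the zona pellucida and 1 for the dosage compensation list, no filter gave 7 in males for the piRNA list (13), and DESeq2 gave 1 interaction for the piRNA and for the dosage compensation list (0). Interaction calls over all genes numbered 100, against 57 with total counts, 243 with DESeq2 and 59 with no filter. With single libraries left out they ran from 36 to 131. The interaction of tyn then ran from -0.20 to 0.21 and that of CG3568 from 0.56 to 0.80. fs(1)Yb ran from -4.29 to -0.61 in females (no usable test at these reads), and its sex difference from 6.89 to 10.20 with the label Myc RNAi and from 5.76 to 6.82 in controls. CG3568 in females ran from -0.19 to 0.041. Called list genes ran from 5 to 11 in females and 0 to 1 for the interaction in the Sevenless list, 0 to 1 in females in the zona pellucida list, and 2 to 4 in females in the dosage compensation list. The causes were not tested. fs(1)Yb did not pass the filter among the 8 female libraries and has no value there. No paired analysis was possible because the titles number the libraries 1 to 16 and no number occurs in more than 1 group. Depth limits fs(1)Yb in females, with 5 and 7 reads in its groups.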
